A study of Mus musculus with 6 samples.

Results

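The genes described here were grouped under the name of mucosal defence, a role not shown here for each of them. They are the dual oxidases Duox1 and Duox2 with their maturation factors Duoxa1 and Duoxa2, the scavenger receptor Dmbt1, the adhesion molecules Ceacam1 and Ceacam10, the carboxypeptidase Cpm and the protease inhibitor A2m. They were chosen by their difference between genotypes on these same arrays, several being lower in mammary tumours of mice without serglycin, so that difference is a description here and carries no test. For each gene the probe set that the platform annotation gives exactly 1 of these symbols was taken, and the brightest was kept where there were several. Of the 9 named genes, 8 had such a probe set, among 22180 genes in all. Duoxa2 had none, since its probe set is annotated to both Duoxa2 and Duoxa1.

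The tumours came from 6 mice that all carried the PyMT transgene, the polyoma virus middle T oncogene that induces mammary tumours. Of these, 3 were SG-/- (both copies of the serglycin gene Srgn disrupted) and 3 were SG+/- (1 copy disrupted), so no mouse had both copies intact. The sources used here give neither the promoter of the transgene nor the strain or age of the mice. RNA of snap-frozen tumour tissue was hybridised to whole-transcript arrays, 1 per tumour, and levels are log2 values normalised by robust multi-array average (RMA). A difference is always SG-/- minus SG+/- on that log2 scale, and values per tumour are listed in the order of replicates 1 to 3, numbers that only name a tumour within its genotype and pair none.

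Dual oxidases sit in the apical membrane of epithelial cells and release hydrogen peroxide, which peroxidases in secretions turn into antimicrobial products. Each oxidase needs a maturation factor to leave the endoplasmic reticulum, and Duoxa1 serves Duox1 while Duoxa2 serves Duox2. The gene of each factor lies next to that of its oxidase on the opposite strand. Dmbt1 is a secreted scavenger receptor with cysteine-rich domains that binds bacteria and viruses in saliva and mucus. Ceacam1 is a transmembrane adhesion molecule of epithelia and leukocytes, and Ceacam10 is a mouse relative of it that is secreted. Cpm is a membrane-anchored enzyme that trims basic residues from the ends of peptides, and A2m is a secreted protein that traps proteases.

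The stretches of DNA before the start sites are shown for both gene pairs that the levels set side by side. RefSeq's table for the mouse assembly GRCm38.p6 held start sites for 7 of the 9 genes, and the 250 bases before each start were read from it, 5′ to 3′ on the gene's own strand. Ceacam1 (chr7:25477626-25477875, minus strand) and Ceacam10 (chr7:24776917-24777166, plus strand) are shown because their upstream sequences are nearly the same while their differences between genotypes were not. Capitals mark the bases that differ in the alignment of the pair. RefSeq lists another start for Ceacam10 a little downstream, which is not shown.
Ceacam1: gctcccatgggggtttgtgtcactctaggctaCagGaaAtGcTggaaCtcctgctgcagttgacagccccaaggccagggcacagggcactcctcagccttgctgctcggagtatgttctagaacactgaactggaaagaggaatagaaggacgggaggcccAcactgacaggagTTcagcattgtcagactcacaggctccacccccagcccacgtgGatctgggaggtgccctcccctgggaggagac
Ceacam10: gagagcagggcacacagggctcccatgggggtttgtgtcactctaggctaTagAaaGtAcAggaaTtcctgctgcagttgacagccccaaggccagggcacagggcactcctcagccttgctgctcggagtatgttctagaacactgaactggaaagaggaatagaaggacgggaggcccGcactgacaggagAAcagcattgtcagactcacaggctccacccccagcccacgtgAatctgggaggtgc
Over 232 aligned bases without a gap, 222 were identical (95.7%) and 10 differed. Of the 239 distinct 12-base words in the Ceacam10 stretch, 157 occurred in that of Ceacam1 and 21 in that of Ceacam2. The next gene in the table, Lins1, shared 7.

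Duoxa1 (chr2:122313731-122313980, minus strand) and Duox1 (chr2:122315422-122315671, plus strand) are shown because they are neighbours on opposite strands whose levels ran together. Capitals mark matches to the GC box GGGCGG on either strand, overlapping matches included.
Duoxa1: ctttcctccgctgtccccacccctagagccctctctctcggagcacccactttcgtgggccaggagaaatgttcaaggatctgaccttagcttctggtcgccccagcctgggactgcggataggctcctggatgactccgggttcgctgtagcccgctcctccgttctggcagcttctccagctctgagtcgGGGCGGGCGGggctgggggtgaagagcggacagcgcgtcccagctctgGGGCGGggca
Duox1: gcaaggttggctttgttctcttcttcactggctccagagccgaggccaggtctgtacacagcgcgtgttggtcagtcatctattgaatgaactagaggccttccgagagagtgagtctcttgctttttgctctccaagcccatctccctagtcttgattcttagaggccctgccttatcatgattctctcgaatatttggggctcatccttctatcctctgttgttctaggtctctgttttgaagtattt
The Duoxa1 stretch held 3 GC box matches, 16 CG dinucleotides and 65.6% G and C. The Duox1 stretch held 0 GC box matches, 5 CG dinucleotides and 47.6% G and C. In the whole table of 32851 stretches, 32.7% held a GC box match, and the median G and C content was 52.4%. The TATA box (TATAAA, both strands) was held by 12.4% of all stretches. The CCAAT box (both strands) was held by 33.8%. The E-box, spelled CACGTG, was held by 6.02% and occurred 1 time in each of the Ceacam stretches. Neither Duoxa1 nor Duox1 had a match to these other motifs. The Cpm stretch (chr10:117629250-117629499, plus strand) held 5 GC box matches and 74.4% G and C.

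Over all genes, limma with Benjamini-Hochberg adjustment called 0 of 22180 (0%) between the genotypes, and 469 (2.11%) had an unadjusted p under 0.05, of which the higher ones in SG-/- tumours were 1.43% of all genes and the lower ones 0.685%. Serglycin itself, the targeted gene, was at 6.76, 6.43 and 6.35 in the SG+/- tumours and at 5.07, 5.04 and 4.89 in the SG-/- tumours. Its difference was -1.52 with a standard error of 0.15 (limma adjusted p = 0.467). To place levels against background, 1390 olfactory and vomeronasal receptor genes were taken as silent in this tissue. Srgn passed their 95th percentile in 1 of 3 SG+/- and 0 of 3 SG-/- tumours. Their mean differed between arrays, at 4.58, 5.63 and 5.5 in the SG+/- tumours and 4.58, 5.13 and 5.87 in the SG-/- tumours. Of 15 luminal mammary markers, 13 lay above the 95th percentile of these receptor genes on all arrays, and Epcam, an adhesion molecule of epithelial cells, was between 12.09 and 12.24. No source says how the tumours were sampled or whether arrays were processed together, so the spread between replicates is that between these 6 samples.

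Of the 8 measured genes, 5 were lower in every SG-/- tumour than in any SG+/- tumour: Dmbt1, Duoxa1, Ceacam10, Cpm and A2m. Over all genes 3.19% were lower and 2.84% higher without overlap, and the 5 genes were named for this contrast, so nothing is read from their count. Duox1 was lower on average, but its genotypes overlapped. Duox2 and Ceacam1 differed by 0.08 and -0.05, less than the spread between replicates. As the RNA was that of tumour tissue, fewer cells of a type and less RNA per cell cannot be told apart.

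**Figure D1:**
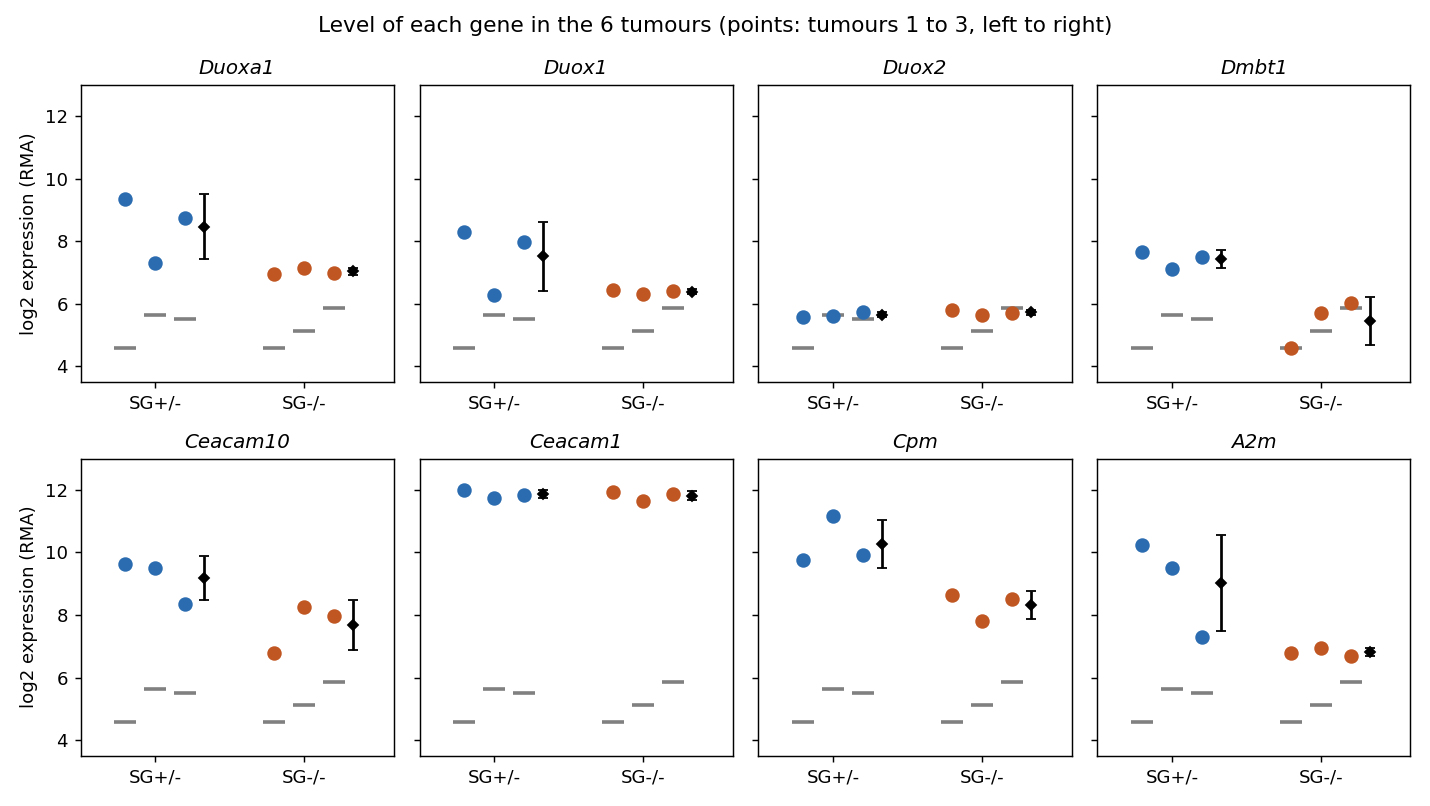
Log2 expression of 8 genes, with SG+/- tumours on the left and SG-/- tumours on the right of each panel, replicates 1 to 3 from left to right; black diamonds and bars give the mean and SD of 3 tumours and grey dashes the mean of 1390 receptor genes on the same array. Dmbt1 in SG-/- tumours lies on or near the dashes, Duox2 lies between 5.58 and 5.80, and Ceacam1 stays between 11.66 and 12.01.

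Duoxa1 (Entrez 213696, probe set 17390778) stood at 9.34, 7.31 and 8.75 in the SG+/- tumours. In the SG-/- tumours it stood at 6.96, 7.15 and 6.99. The SG-/- tumours were thus nearly level, while SG+/- tumours spanned 2.02, with replicates 1 and 3 high and replicate 2 only 0.17 above the highest SG-/- tumour. The means were 8.47 ± 1.04 and 7.03 ± 0.10 (SD, n = 3 each), a difference of -1.43 with a standard error of 0.47, or 2.70-fold lower. Duoxa1 passed the 95th percentile of the receptor genes in 2 of 3 tumours of each genotype. Leaving out SG+/- replicate 2 gave -2.01, and leaving out SG+/- replicate 1 gave -1.0.

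Duox1 (Entrez 99439, probe set 17375418), the oxidase that Duoxa1 serves, stood at 8.31, 6.27 and 7.96 in the SG+/- tumours. It stood at 6.45, 6.31 and 6.41 in the SG-/- tumours. The same SG+/- tumours were high as for Duoxa1, and SG+/- replicate 2 lay under all SG-/- tumours. Only SG+/- replicates 1 and 3 and SG-/- replicate 1 passed the 95th percentile of the receptor genes on their array. Duox1 differed by -1.12 (standard error 0.49), from 7.51 ± 1.09 to 6.39 ± 0.07 (SD, n = 3 each). Leaving out SG+/- replicate 1 gave -0.73 and leaving out SG+/- replicate 2 gave -1.74, so the size rests on which SG+/- tumours are counted.

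Set relative to their own SG+/- means, Duoxa1 and Duox1 moved alike over the SG+/- tumours, and both were low in the SG-/- tumours. Among the SG-/- tumours, over which they ranged by only 0.18 and 0.15, their order was reversed. Duoxa1 was at 0.87, -1.15 and 0.29 in the SG+/- tumours, and Duox1 at 0.80, -1.24 and 0.45. In the SG-/- tumours Duoxa1 was at -1.5, -1.32 and -1.48, and Duox1 at -1.06, -1.21 and -1.10. Duoxa1 minus Duox1 differed by -0.31 between the genotypes with a standard error of 0.13, a small part of the -1.43 of Duoxa1. With limma's array weights this gap was -0.12. Among 14846 genes above the dim level, Duox1 had the 2nd highest Pearson correlation with Duoxa1 over the 6 arrays (r = 0.980). This r describes 6 points that include the genotype difference and come from neighbouring genes.

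Duox2 (Entrez 214593, probe set 17390738), the other oxidase of the locus, did not share this pattern. It was at 5.58, 5.62 and 5.73 in the SG+/- tumours and at 5.80, 5.65 and 5.72 in the SG-/- tumours. All 6 values lay under the 95th percentile of the receptor genes on their array, which ran from 6.42 to 8.04, so Duox2 was not told apart from silent genes. Duoxa1 minus Duox2 differed by -1.51 with a standard error of 0.61. The probe set annotated to both Duoxa2 and Duoxa1 (17375409) was also under that level in all 6 tumours. It read 5.56, 5.53 and 5.63 in the SG+/- tumours and 5.60, 5.57 and 5.85 in the SG-/- tumours. It did not show the high values that the probe set of Duoxa1 alone showed in SG+/- replicates 1 and 3, and no level is given for Duoxa2.

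**Figure D2:**
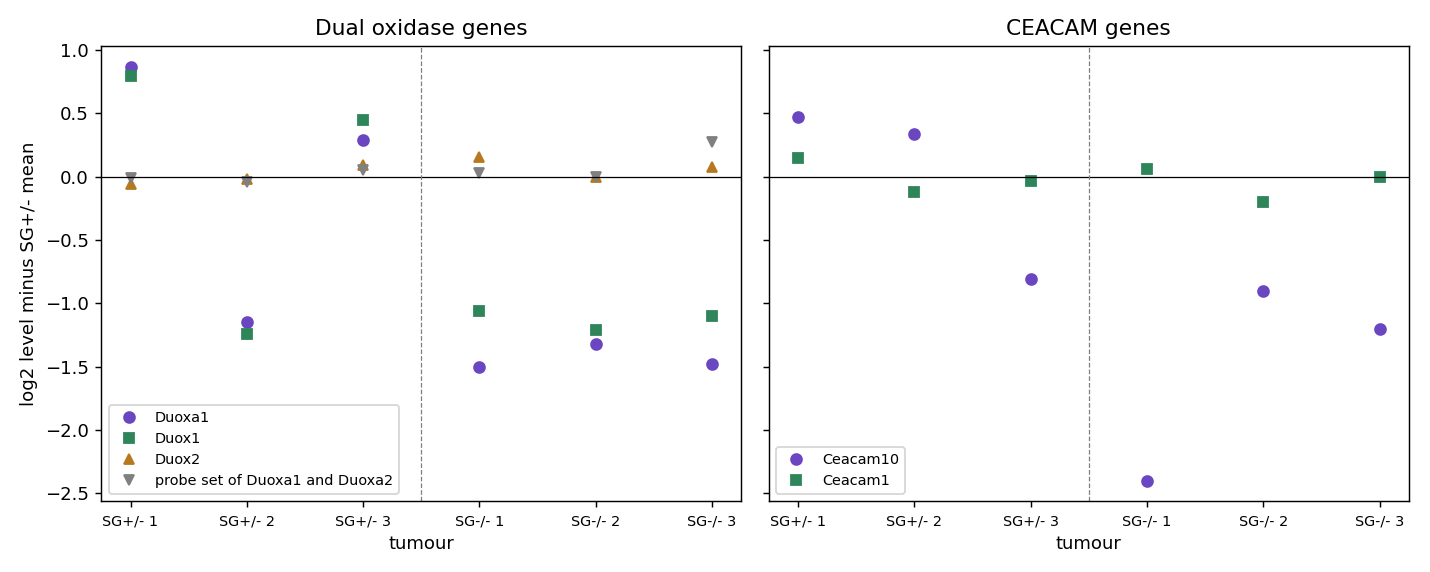
Log2 level of each gene minus its own SG+/- mean (vertical axis) in the 6 tumours (horizontal axis), for the dual oxidase genes on the left and the CEACAM genes on the right. Duoxa1 and Duox1 are both low in SG+/- replicate 2 and in all SG-/- tumours, Duox2 and the probe set shared by Duoxa1 and Duoxa2 stay near 0, and Ceacam10 reaches -2.40 while Ceacam1 stays between -0.20 and 0.15.

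Dmbt1 (Entrez 12945, probe set 17483925) stood at 7.67, 7.12 and 7.51 in the SG+/- tumours and at 4.58, 5.71 and 6.03 in the SG-/- tumours. The genotypes were 1.09 apart at their nearest values. The SG-/- values followed the mean of the receptor genes on the same arrays, 4.58, 5.13 and 5.87, and no SG-/- value passed the 95th percentile of those genes. Of the SG+/- values 1 of 3 passed it, and Dmbt1 in SG-/- tumours was not told apart from silent genes. The means were 7.43 ± 0.28 and 5.44 ± 0.76 (SD, n = 3 each), a difference of -1.99 with a standard error of 0.37, and no fold is given against a level that was not above background. Its SG+/- tumours spanned only 0.56, where those of Duoxa1 spanned 2.02.

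Ceacam10 (Entrez 26366, probe set 17475081) stood at 9.64, 9.51 and 8.36 in the SG+/- tumours. It stood at 6.77, 8.27 and 7.97 in the SG-/- tumours. SG+/- replicate 3 and SG-/- replicate 2 were only 0.09 apart, and SG-/- replicate 1 was lowest. The means were 9.17 ± 0.71 and 7.67 ± 0.79 (SD, n = 3 each), a difference of -1.5 with a standard error of 0.48, or 2.83-fold lower. Ceacam10 passed the 95th percentile of the receptor genes in 3 of 3 SG+/- and 2 of 3 SG-/- tumours. With array weights the difference was -0.85. These weights were 0.957, 4.95 and 0.197 for the SG-/- tumours. They thus count SG-/- replicate 2, the highest SG-/- tumour in Ceacam10, far more than the others. For the SG+/- tumours the weights were 0.73, 0.737 and 1.99, so replicate 3, the lowest SG+/- tumour in Ceacam10, also counts most. Ceacam1 (Entrez 26365, probe set 17487952) read 12.01, 11.75 and 11.83 in the SG+/- tumours and 11.92, 11.66 and 11.87 in the SG-/- tumours. Its tumours spanned 0.26 within each genotype, more than its difference of -0.05. Ceacam10 minus Ceacam1 differed by -1.45 with a standard error of 0.65. Leaving out SG-/- replicate 1 gave -0.95, and array weights gave -0.70. Whether the probes separate these relatives was not tested, so the gene behind the Ceacam10 signal is uncertain.

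Cpm (Entrez 70574, probe set 17237547) stood at 9.76, 11.16 and 9.92 in the SG+/- tumours. In the SG-/- tumours it stood at 8.65, 7.82 and 8.52. All values lay above the 95th percentile of the receptor genes on their array, and the genotypes were 1.11 apart at their nearest values. The means were 10.28 ± 0.76 and 8.33 ± 0.45 (SD, n = 3 each), a difference of -1.95 with a standard error of 0.40, or 3.87-fold lower. SG+/- replicate 2, the SG+/- tumour lowest in Duoxa1 and Duox1, was the highest in Cpm.

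A2m (Entrez 232345, probe set 17462492) stood at 10.25, 9.51 and 7.30 in the SG+/- tumours and at 6.79, 6.94 and 6.69 in the SG-/- tumours. SG+/- replicates 1 and 2 were high, and SG+/- replicate 3 lay 0.37 above the highest SG-/- tumour. The means were 9.02 ± 1.53 and 6.80 ± 0.12 (SD, n = 3 each), a difference of -2.22 with a standard error of 0.68. A2m passed the 95th percentile of the receptor genes in 2 of 3 SG+/- tumours, replicates 1 and 2, and in 1 of 3 SG-/- tumours, so its low levels were mostly not told apart from silent genes and no fold is given. Leaving out SG+/- replicate 3 gave -3.08, leaving out SG+/- replicate 1 gave -1.60, and array weights gave -1.49, which count SG+/- replicate 3 more (weight 1.99) than replicates 1 and 2 (0.73 and 0.737).

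Of the 5 genes without overlap, Dmbt1, Duoxa1, Ceacam10 and A2m were highest in SG+/- replicate 1, and Cpm in SG+/- replicate 2. The SG+/- tumour in which they were lowest was not the same for all. Duoxa1 was lowest in SG+/- replicate 2, Ceacam10 and A2m in SG+/- replicate 3, and Cpm in SG+/- replicate 1, while Dmbt1 varied least among them (range 0.56). In SG-/- tumours Duoxa1 and A2m ranged over 0.18 and 0.25, while Dmbt1 and Ceacam10 ranged over 1.46 and 1.5 and were both lowest in SG-/- replicate 1.

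**Figure D3:**
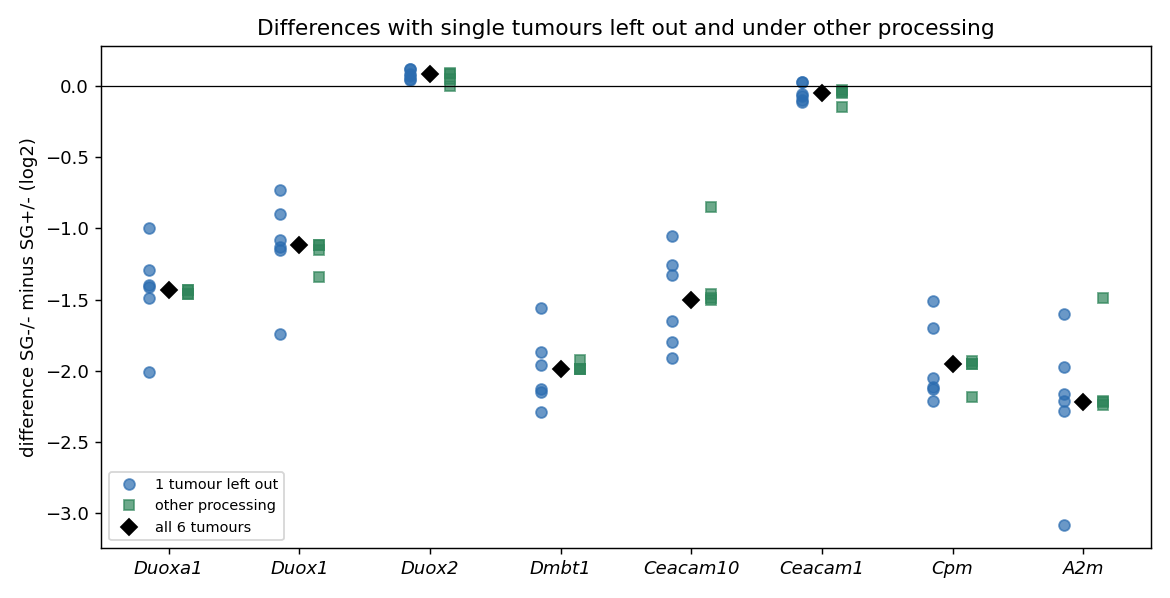
Difference SG-/- minus SG+/- (log2, vertical axis) of each gene (horizontal axis) with all 6 tumours (black diamonds), with 1 tumour left out (circles) and under other normalization, weighting or probe set choices (squares). Duoxa1, Duox1, Dmbt1, Ceacam10, Cpm and A2m stay below 0 under all settings shown, from -0.73 for Duox1 to -3.08 for A2m, and Ceacam1 lies on both sides of 0.

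The other genes of each family served as a frame for these values. Over all genes 53.7% were lower in SG-/- tumours, the median difference was -0.01, and 0.0992% differed by -1 or below. Of 17 genes of the NADPH oxidases and their partners 14 were measured, 11 of them not among the genes described above. Of these 11, 6 were higher and 5 lower in SG-/- tumours. The median of the 11 differences was 0.01, and limma called 0, with Cybb and Rac2 alone at an unadjusted p under 0.05. Cybb, the phagocyte oxidase, was at 9.74, 9.43 and 9.65 in the SG+/- tumours and at 10.36, 10.07 and 9.83 in the SG-/- tumours. Its difference was 0.48 (limma adjusted p = 1.0). Rac2, a small GTPase that activates that oxidase in blood cells, differed by 0.47 (limma adjusted p = 1.0). Macrophage markers lay on the same side, with 10 of 10 higher in SG-/- tumours and Adgre1 0.53 higher. Summed log2 level here and below means the log2 of the summed unlogged levels, in which the brightest genes of a list weigh most. For macrophage markers it ran from 12.38 to 12.58 in SG+/- and from 12.40 to 13.21 in SG-/- tumours. The part of macrophages in the Cybb and Rac2 values was not tested. The largest difference toward lower levels in this group was that of Cybc1, a chaperone of the phagocyte oxidase, at -0.24.

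Peroxidases use the hydrogen peroxide that dual oxidases release, and other enzymes remove it. Of 16 such genes 12 were measured, 6 higher and 6 lower, and limma called 0, also at an unadjusted p under 0.05. Lpo, the lactoperoxidase of milk and saliva, had the largest difference, 0.59, with overlapping genotypes. It was at 7.05, 6.64 and 6.82 in the SG+/- tumours and at 7.52, 6.80 and 7.94 in the SG-/- tumours. Pxdn, which crosslinks collagen of basement membranes, differed by -0.18.

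All 15 genes named for the CEACAM family were measured. The 13 besides Ceacam1 and Ceacam10 differed by between -0.24 (Ceacam9) and 0.28 (Ceacam14), 6 higher and 7 lower, with 0 called by limma and 0 at an unadjusted p under 0.05. Ceacam2, whose upstream DNA shared 21 words with that of Ceacam10, was at 6.67, 6.48 and 6.34 in the SG+/- tumours and at 6.29, 6.59 and 6.31 in the SG-/- tumours. Only 1 of the 15 genes, Ceacam1, lay above the 95th percentile of the receptor genes on all 6 arrays, so most of the family was not told apart from silent genes.

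Among 14 measured relatives of Dmbt1 with scavenger receptor cysteine-rich domains, 11 were higher and 3 lower in SG-/- tumours. Limma called 0, and Scara5 and Lgals3bp alone had an unadjusted p under 0.05. Scara5, a scavenger receptor that binds ferritin, was at 8.83, 8.73 and 8.55 in the SG+/- tumours and at 8.0, 8.29 and 7.42 in the SG-/- tumours. Its difference was -0.80 with a standard error of 0.23 (limma adjusted p = 1.0). Lgals3bp, a secreted protein that binds galectins and is induced by interferons, differed by 0.47 (limma adjusted p = 1.0).

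Among 14 measured carboxypeptidases besides Cpm, 10 were higher and 4 lower, and Cpa3 and Cpxm2 alone had an unadjusted limma p under 0.05. Cpd, a carboxypeptidase of the Golgi with the same preference for basic residues, had the largest difference toward lower levels, at -0.29. Cpa3, the mast cell carboxypeptidase that serglycin stores in granules, had the largest toward higher levels, at 0.69 (limma adjusted p = 1.0), with overlapping genotypes. Cpxm2 differed by 0.53 (limma adjusted p = 1.0). Of 6 measured relatives of A2m, 4 were lower and 2 higher. The complement protein C4b had the largest difference, -0.71, and overlapped between genotypes. Like A2m it was high in SG+/- replicates 1 and 2, at 11.35 and 11.07, and it lay between 9.84 and 10.34 in the other 4 tumours. Cd109, a membrane-bound relative, differed by 0.28, and limma called none of the carboxypeptidases or A2m relatives.

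**Figure D4:**
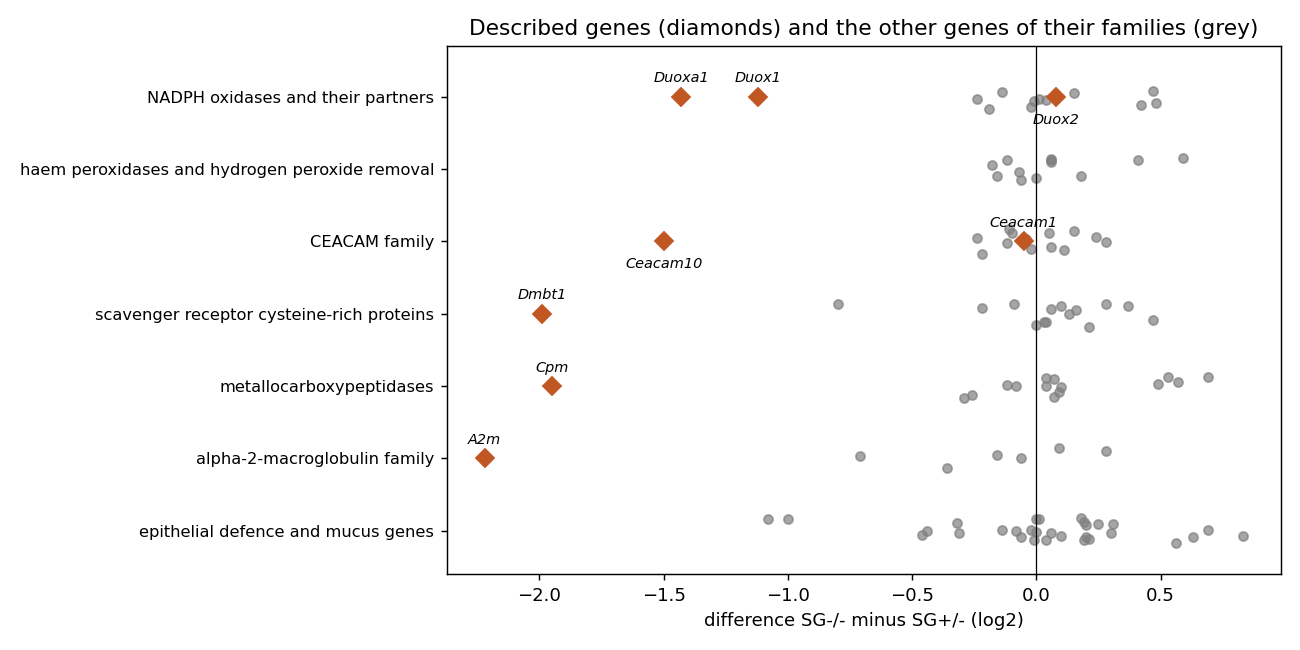
Difference SG-/- minus SG+/- (log2, horizontal axis) of the genes described here (orange diamonds) and of the other measured genes in 7 lists (grey circles, spread vertically for legibility). Dmbt1, Cpm, A2m, Ceacam10, Duoxa1 and Duox1 lie between -1.12 and -2.22, and the grey circles lie between -1.08 (Bpifb1) and 0.83 (Muc13).

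Other genes of mucus and epithelial defence did not share a direction. Of 32 named genes 30 were measured, 18 higher and 12 lower in SG-/- tumours. The 30 differences had a median of 0.05. Limma called 0, and 1 had an unadjusted p under 0.05. That gene was Clca1, a secreted protein that processes mucus, at 6.18, 6.23 and 6.22 in the SG+/- tumours and at 6.90, 7.27 and 6.52 in the SG-/- tumours. Its difference was 0.69 (limma adjusted p = 1.0). Bpifb1, a secreted relative of bactericidal proteins, had the largest difference toward lower levels, -1.08. It was at 9.27, 9.69 and 6.50 in the SG+/- tumours and at 8.70, 6.45 and 7.08 in the SG-/- tumours, so the genotypes overlapped. Muc13, a membrane mucin, had the largest toward higher levels, 0.83, and only SG-/- replicate 2 was high, at 9.25 against 6.04 to 6.87 in the other tumours.

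Markers of the cells that a sample of mammary tumour tissue could hold were read beside these values. Luminal epithelial markers had 9 of 15 genes higher, a median difference of 0.03 and a summed log2 level from 14.83 to 14.93 in SG+/- and 14.82 to 14.95 in SG-/- tumours. Epcam differed by -0.09. Salivary gland genes had 9 of 14 higher in SG-/- tumours. Their summed log2 level ran from 12.89 to 13.80 in SG+/- and from 13.28 to 14.72 in SG-/- tumours. Bpifa2 was at 13.54, 7.26 and 13.64 in the SG-/- tumours and at 5.98 to 6.47 in SG+/- tumours. Of the 5 lower salivary genes, Dcpp2 had the largest difference, -2.54, and was named after its values were seen. It was at 7.43, 10.66 and 8.22 in the SG+/- tumours and at 6.55, 4.71 and 7.43 in the SG-/- tumours. Fibroblast markers were higher for 9 of 9 genes (summed log2 level 12.70 to 13.26 in SG+/- and 13.38 to 14.35 in SG-/- tumours), with Col1a1 0.38 higher. Milk protein genes were higher for 5 of 8, with overlapping summed levels, and Wap differed by -0.75. Airway epithelial genes were higher for 4 of 9, skin keratinocyte genes for 7 of 10, basal cell genes for 7 of 8, adipocyte genes for 7 of 7, and skeletal muscle genes for 3 of 8. For the airway and skin lists 0 genes lay above the 95th percentile of the receptor genes on all arrays, and the same held for neutrophil and adipocyte lists. The part of these cells in the differences of Dmbt1, Duoxa1, Ceacam10, Cpm and A2m was not tested.

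The chromosomal neighbours of the 8 genes, 3 measured genes on each side in RefSeq order, gave 36 genes besides the members themselves. Of these, 19 were higher and 17 lower in SG-/- tumours, around a median of 0.05. Shf, the neighbour of Duox1 on the side away from Duoxa1, differed by -0.01, and Mug1, next to A2m, by -0.36; both were named after their values were seen. Only Cd177 and B2m had an unadjusted limma p under 0.05. Cd177, a surface protein of neutrophils that lies next to Ceacam10, was at 7.92, 7.49 and 7.29 in the SG+/- tumours and at 6.75, 7.18 and 6.72 in the SG-/- tumours. Its difference was -0.68 with a standard error of 0.21 (limma adjusted p = 1.0). It thus lay on the same side as Ceacam10, also without overlap. Of the 36 neighbours, 2 were lower and 1 higher without overlap, beside 3.19% and 2.84% of all genes, so nothing is read from this. The other lower one was Slc35e3, near Cpm, at -0.14. Neutrophil markers, read beside Cd177, had 6 of 9 genes higher in SG-/- tumours, and S100a8 at -0.27. Their summed log2 level ran from 9.09 to 9.16 in SG+/- and from 9.03 to 9.37 in SG-/- tumours. Of these 9 genes, 0 lay above the 95th percentile of the receptor genes on all arrays, so their direction says little. B2m, the light chain of MHC class I, lies near Duox2 and differed by 0.39 (limma adjusted p = 1.0).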

How the data were processed

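Total RNA of 6 tumours was labelled as sense-strand cDNA and hybridised to 1 array each, per the labels' protocols. The deposited values are log2 expression per probe set after RMA by the authors, per the series design text, and Expression Console from Affymetrix is listed beside RMA and limma, with no version, per the submitters' processing notes. The genome build of the files is not given in the sources used here. The 6 arrays held 33793 probe sets and 0 missing values, and their number limits the precision.

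Probe sets were named from the platform annotation: 23521 had 1 symbol, 1814 several, and 8458 were not listed. The brightest probe set per gene was kept, which left 22180 genes. The genotype contrast was fitted by limma 3.58.1 (R 4.3.3; lmFit, then eBayes), two-sided and unpaired, and p-values were adjusted by Benjamini-Hochberg across the 22180 genes, with a threshold of 0.05. Gene levels were set against olfactory and vomeronasal receptor genes. Likeness was Pearson correlation over 6 arrays, among genes with a mean at or above the 40th percentile of probe sets (6.09). Upstream stretches were aligned with Biopython 1.88. Plots used matplotlib 3.10.9.

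The fit was tested on simulated data first.

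The genes and lists were chosen with earlier results of these data known. Named besides them are Srgn, the largest difference in each direction per family list, list genes and neighbours with an unadjusted p under 0.05, the first marker of a cell type list, and the 3 genes most like each of 5 genes, passing over predicted, receptor and small RNA genes. Alternatives were a filter on dim genes, repeated quantile normalization, centring on brighter genes, eBayes with trend and robust settings, array weights, the mean of a gene's probe sets, and leaving out each tumour.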

Additional observations from a re-analysis of the deposited data

How the results depend on the processing

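Over all genes, limma called between 0 and 1 genes when 1 tumour was left out, the 1 gene without SG-/- replicate 2, and 0 under every other alternative. The count at an unadjusted p under 0.05 was 469, ran from 327 to 1200 with 1 tumour left out (1200 without SG-/- replicate 3) and was 2569 with array weights. Duoxa1 minus Duox1 was -0.31 and ran from -0.41 to -0.24 with 1 tumour left out, and with array weights it was -0.12. Duoxa1 minus Duox2 ran from -2.08 to -1.05 and Ceacam10 minus Ceacam1 from -1.84 to -0.95 with 1 tumour left out. Of 80 values of single genes under alternatives, 79 moved by less than 1 SD between replicates. The exception was Duox2 with array weights. With 3 tumours per genotype, leaving out 1 cannot move the difference of a gene by as much as this SD. The mean of a gene's probe sets gave the same differences as the main setting. Most of this count was thus fixed in advance, and no stability is read from it. Of 77 list medians 72 moved by less than 1 SD between replicates. Of the 7 list medians, members included, that of the A2m family ran from -0.40 to -0.04, and the other 6 lay on both sides of 0, between -0.14 and 0.15, so they have no settled direction. The filter on dim genes and the eBayes settings leave the difference of a single gene as it is and were not counted here. No paired analysis was possible because the labels give no replicate numbers and each mouse is a separate animal. The causes were not tested. Under the 95th percentile of the receptor genes were Duox2 in all tumours, and Dmbt1 and Srgn in all SG-/- and 2 of 3 SG+/- tumours. A2m and Duox1 were under it in 2 of 3 SG-/- and 1 of 3 SG+/- tumours. Duoxa1 passed it in only 2 of 3 tumours of each genotype, and Ceacam10 in only 2 of 3 SG-/- tumours. This limits what the differences of these genes can show.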

Other observations

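The genes whose levels ran most like those of the lower genes over the 6 arrays differed by smaller amounts, as r takes no account of size. Among 14846 genes above the dim level, Atp13a1 was most like Duoxa1 (r = 0.985) but differed by -0.09, and Ppp1r10 (r = 0.977) by -0.30. Adgrg2, an adhesion receptor, was most like Ceacam10 (r = 0.978) and differed by -0.55, ahead of Polq (r = 0.970) and Bclaf1 (r = 0.969). Vamp1, a vesicle fusion protein, was most like Dmbt1 (r = 0.996). It stood at 9.88, 9.74 and 9.91 in SG+/- replicates 1 to 3 and at 8.89, 9.33 and 9.39 in SG-/- replicates 1 to 3, a difference of -0.64. The gene at rank 2 is left out here as a predicted, receptor or small RNA gene by its symbol. Thrsp, a regulator of fatty acid synthesis, was at rank 3 (r = 0.973), at 9.77, 9.59 and 9.58 in SG+/- replicates 1 to 3 and at 8.90, 9.06 and 9.33 in SG-/- replicates 1 to 3, and Aire was at rank 4 (r = 0.972). Ccdc136 (r = 0.989), Ccng1 (r = 0.988) and Prrt2 (r = 0.987) were most like Cpm, and Psme4 (r = 0.993), Zfp830 (r = 0.993) and Rab26 (r = 0.990) most like A2m, with differences from -0.35 to -0.19. These correlations describe 6 points that include the genotype difference. For Dmbt1, 1 of 3 SG+/- and 0 of 3 SG-/- values passed the 95th percentile of the receptor genes, which limits its correlations here and below.

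Among the described genes themselves, A2m and Ceacam10 ran most alike after Duoxa1 and Duox1 (r = 0.871), followed by Dmbt1 and Ceacam10 (r = 0.866). Ceacam1 and Ceacam10 had an r of -0.008 over the same 6 arrays.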
